A study of Mus musculus with 6 samples.

Results

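The semaphorins, plexins, neuropilins, ephrins and Eph receptors are the ligands and receptors of 2 families of contact and guidance signals, and 53 of the 21000 protein-coding genes of the mouse mm10 annotation belong to them. They were chosen by symbol among genes with a curated RefSeq transcript: Sema followed by a digit, Plxn, Nrp1, Nrp2, Efna, Efnb, Epha and Ephb. The data are Lsd1 ChIP-seq peak lists of C2C12 cells, a mouse myoblast line, on day 1 of differentiation. Wild-type cells were kept in myogenic medium with horse serum or in adipogenic medium, which held isobutylmethylxanthine, indomethacin, dexamethasone, insulin, T3 and rosiglitazone. LSD1(OE) cells, a stable lentiviral line selected with G418 in which doxycycline induces Flag-tagged LSD1, were kept in adipogenic medium, so the level of LSD1, the line and doxycycline cannot be told apart. Each condition had 1 ChIP library and 1 input library, so differences are between single libraries and none was tested. Transcript levels were not analysed here, and a peak says nothing of whether a gene was expressed.

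Secreted class 3 semaphorins bind a neuropilin co-receptor that signals through a plexin, while the membrane-bound semaphorins bind plexins directly. Ephrin-A ligands are held in the membrane by a lipid anchor and bind mainly EphA receptors, ephrin-B ligands span the membrane and bind mainly EphB receptors, and both partners can signal into their own cell. Both systems steer growing axons and vessels, and in muscle they take part in myoblast migration and in innervation. Lsd1, encoded by Kdm1a, is a demethylase of histone H3 that is recruited to promoters and enhancers.

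The deposited lists held 43426 peaks (myogenic), 18893 (wild-type adipogenic) and 33533 (LSD1(OE)), from 46155625, 63915769 and 55193310 ChIP tags. A peak needed at least 27, 35 and 30 tags, respectively. A promoter peak is one whose centre lay within 2000 bp of any transcription start site (TSS) of a gene, and a gene-body peak one whose centre lay inside the gene. The score is 10 times the negative log10 of the peak caller's p-value. It and the number of peaks depend on how deep each library and its input were, since the ChIP tags had been scaled up by 1.9, 1.28 and 1.82 to the input. Chromosome 15 held 8.59 to 10.4% of each library's peaks, and its protein-coding genes had promoter peaks more often (67.5, 57.8 and 62.5% against 50.9, 28.9 and 40.3% elsewhere). Plxnb2 and Sema5a lie on it.

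In the deposited lists, Lsd1 peaks lay at the promoters of most of these genes in every library. In myogenic medium 37 of 53 (69.8%) had a promoter peak, against 51.5% of all protein-coding genes. In wild-type adipogenic medium 30 (56.6%) had one, against 29.9%, and in LSD1(OE) cells 34 (64.2%), against 41.1%. At least 1 library showed a promoter peak at 39 genes, and a promoter or gene-body peak at 44. The order of the libraries depends on the length of the lists: with only the 18893 strongest peaks of each, 28 genes had a myogenic promoter peak (52.8%, against 40.4% of all genes), 30 an adipogenic one (56.6%, against 29.9%) and 30 one in LSD1(OE) cells (56.6%, against 32.3%).

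The genes kept their promoter peaks across media more often than protein-coding genes did. Of the 37 with a myogenic promoter peak, 30 also had one in the wild-type adipogenic library (81.1%, against 56.3% of all genes) and 32 in LSD1(OE) cells (86.5%, against 74.0%). All 3 libraries showed a promoter peak at 27 genes (50.9%, against 26.3%), and none did at 14 (26.4%, against 45.0%). The 5 genes with a peak in the myogenic and LSD1(OE) libraries and not in the wild-type adipogenic one (9.43%) were close to the share of all genes (11.8%), and numbered 1 with equal numbers of peaks and 7 at an FDR limit of 0.1%. A peak in myogenic medium only was found at 2 (3.77%, against 10.6%). Another 3 had one in the wild-type libraries alone (5.66%, against 2.75%), and 2 in LSD1(OE) cells only (3.77%, against 2.59%). No gene had one solely in the wild-type adipogenic library (0.471% of all genes) or in both adipogenic libraries without the myogenic one (0.448%).

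Promoter sequence differed between these genes and the rest. The ratio of observed to expected CpG within 500 bp of the most upstream TSS had a median of 0.69 in these genes and 0.59 in all protein-coding genes, and it was at least 0.6 in 40 genes (75.5%, against 49.4%). Among such CpG-rich genes the myogenic share was close to that of all genes, at 77.5% against 80.4%. In wild-type adipogenic medium it was 67.5% against 48.4%, and in LSD1(OE) cells 70.0% against 64.8%. Of the 13 CpG-poor genes, 46.2, 23.1 and 46.2% had a promoter peak, against 23.3, 12 and 18.1% of all CpG-poor genes. Genes with several TSSs can have their peak at one where the ratio was not taken, as Sema3a did.

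**Figure D1:**
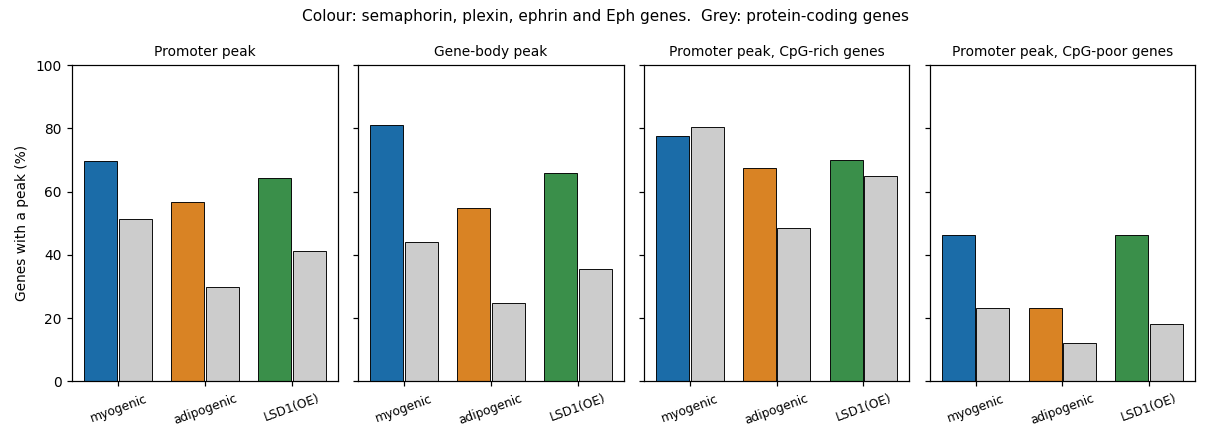
Percent of genes with an Lsd1 peak (vertical axis) in each library (horizontal axis), for the 53 semaphorin, plexin, neuropilin, ephrin and Eph genes (coloured bars) and for protein-coding genes (grey bars). The panels show promoter peaks, gene-body peaks, and promoter peaks of the 40 CpG-rich and 13 CpG-poor members. Grey bars are all 21000 genes in the promoter and gene-body panels, and the 10365 CpG-rich or 10635 CpG-poor ones in the CpG panels. The coloured bar is above the grey one in every panel but the myogenic bars of CpG-rich genes, 77.5% against 80.4%.

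Of the 12 genes with the highest promoter score, the 5 with the longest sequence kept at their strongest promoter peak are shown. Efnb2 had 87 bp kept, Nrp1 50 bp and Plxna2 10 bp, while Plxnb2, Sema5a, Sema4c and Ephb6 had none. The windows were therefore not picked for their CpG content, and the highest-scoring peak, that of Plxnb2, is not among them. The windows of Nrp2, Sema3c and Efna4 can be set beside those of Efna5 and Sema4b, which hold fewer CpGs and lie farther from the TSS. All 5 genes counted as CpG-rich by the ratio around the TSS (0.81, 0.81, 0.60, 0.95 and 0.62). Each is mm10 sequence on the strand of its gene, from the 300 bp around the summit of the myogenic peak. Capitals mark GGGCGG, the GC box, or its reverse complement CCGCCC. The Nrp2 window, chr1:62703172-62703316, plus strand, is the 145 bp just before the TSS, with 23 CpGs, and the summit lay 5 bp past the TSS.
Nrp2: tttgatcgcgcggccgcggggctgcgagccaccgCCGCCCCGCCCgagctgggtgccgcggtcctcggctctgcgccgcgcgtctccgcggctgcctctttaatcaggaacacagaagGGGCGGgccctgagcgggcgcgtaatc
The Sema3c window, chr5:17574429-17574728, plus strand, has 37 CpGs and spans -387 to -88 bp from the TSS.
Sema3c: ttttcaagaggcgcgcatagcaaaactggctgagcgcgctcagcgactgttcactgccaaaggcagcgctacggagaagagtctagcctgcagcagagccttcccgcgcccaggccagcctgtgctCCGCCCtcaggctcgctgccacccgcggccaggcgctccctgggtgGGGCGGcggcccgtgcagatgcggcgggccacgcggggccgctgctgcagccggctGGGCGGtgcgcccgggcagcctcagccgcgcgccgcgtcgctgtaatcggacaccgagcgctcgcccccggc
The Efna4 window, chr3:89337485-89337784, minus strand, lies in the first intron 244 to 543 bp past the TSS and has 26 CpGs.
Efna4: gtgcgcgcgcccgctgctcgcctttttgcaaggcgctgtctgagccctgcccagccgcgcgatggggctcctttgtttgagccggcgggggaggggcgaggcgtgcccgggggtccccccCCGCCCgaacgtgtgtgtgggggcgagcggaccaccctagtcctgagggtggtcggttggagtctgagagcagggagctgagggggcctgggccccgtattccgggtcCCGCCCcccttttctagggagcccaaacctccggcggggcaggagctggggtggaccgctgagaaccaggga
The Efna5 window, chr17:62882954-62883253, minus strand, has 14 CpGs and spans -1936 to -1637 bp from the TSS.
Efna5: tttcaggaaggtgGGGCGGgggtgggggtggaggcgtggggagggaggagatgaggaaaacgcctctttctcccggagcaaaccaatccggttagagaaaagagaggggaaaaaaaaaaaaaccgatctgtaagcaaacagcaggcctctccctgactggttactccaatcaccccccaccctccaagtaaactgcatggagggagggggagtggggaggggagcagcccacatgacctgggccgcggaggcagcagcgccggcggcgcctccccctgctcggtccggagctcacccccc
The Sema4b window, chr7:80186075-80186374, plus strand, has 8 CpGs and spans -795 to -496 bp from the TSS.
Sema4b: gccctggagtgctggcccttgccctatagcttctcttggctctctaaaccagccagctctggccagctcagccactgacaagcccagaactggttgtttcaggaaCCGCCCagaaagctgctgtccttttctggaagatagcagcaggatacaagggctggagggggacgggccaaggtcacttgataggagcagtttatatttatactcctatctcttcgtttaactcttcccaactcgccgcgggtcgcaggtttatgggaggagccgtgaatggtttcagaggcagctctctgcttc
GGGCGG, on either strand of the 300 bp around the summit, was in 49.2, 57.1 and 54.8% of the promoter peaks of these genes in the myogenic, wild-type adipogenic and LSD1(OE) libraries. All promoter peaks held it in 55.9, 57.2 and 54.4%.

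Among the ligands, the secreted class 3 semaphorins had promoter peaks at 6, 5 and 5 of 7 genes in the myogenic, wild-type adipogenic and LSD1(OE) libraries. Sema3c, which guides neural crest cells and vessels, carried the strongest, with scores of 1099, 680 and 1003 from 209, 200 and 203 tags. Its 3 peaks were centred 211, 41 and 12 bp upstream of the TSS, and the tag counts differed by less than their counting intervals (182 to 239, 173 to 230 and 176 to 233). Sema3d, Sema3e and Sema3f also had promoter peaks in all 3 libraries, with scores from 53.7 to 340. Sema3a, a repellent of motor axons, had one in both wild-type libraries (209 and 193) and Sema3b only in myogenic medium (77.5).

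The membrane-bound semaphorins had promoter peaks at 10, 8 and 9 of 13 genes. Sema4c, a plexin-B2 ligand linked to myogenic differentiation, scored 501 in myogenic medium, 602 in wild-type adipogenic medium and 1173 in LSD1(OE) cells. In LSD1(OE) cells a single Sema4c peak of 5903 bp with 442 tags lay over the region where the myogenic library had separate peaks of 161 and 153 tags, and wild-type adipogenic medium had 1 of 305 tags. The level per kb and 1000000 ChIP tags was not higher with it, being 1.44 in wild-type adipogenic medium and 1.36 in LSD1(OE) cells. Sema4b scored 880, 500 and 757 and Sema5a 1211, 311 and 177. The myogenic Sema5a peak was 4244 bp long with 328 tags, and inside it LSD1(OE) cells had separate peaks of 95 tags over 1274 bp and 46 tags over 809 bp. Its centre lay nearer to the TSS of the non-coding gene Snhg18 (-70 bp) than to that of Sema5a (-81 bp), so it cannot be assigned to 1 of them. Sema4f, Sema4g and Sema5b had no promoter peak in any library.

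The ephrin-A ligands were the ligand group with no gap: all 5 had a promoter peak in each of the 3 libraries. Efna5, a ligand of several EphA receptors, scored 1014, 323 and 349 from 257, 218 and 129 tags. Efna4 scored 668, 213 and 293 from 143, 111 and 143 tags. Efna1, Efna3 and Efna4 are neighbours on chromosome 3, with 32.9 kb between Efna1 and Efna3 and 10.5 kb between Efna3 and Efna4, and each had peaks of its own. Efna3 had the weakest of them, with scores of 50.4, 79.9 and 99.0. Of the ephrin-B ligands, Efnb2, a marker of arterial endothelium, scored 817, 317 and 1126 from 151, 166 and 317 tags. Efnb1 had a promoter peak only in myogenic medium (80.2), and Efnb3 had none.

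Among the receptors, both neuropilins carried strong promoter peaks in all 3 libraries. Nrp1, a co-receptor for class 3 semaphorins and VEGF, scored 1318, 578 and 1617 from 325, 223 and 368 tags. Its densities per kb and 1000000 ChIP tags were 1.68, 1.57 and 1.90. Nrp2 scored 1366, 506 and 675 from 189, 181 and 164 tags, with densities of 2.86, 1.75 and 1.79.

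Plexins had promoter peaks at 6, 4 and 6 of 9 genes. Plxnb2, the receptor of several class 4 semaphorins, had the highest promoter score of the 53 genes, 2078 in myogenic medium from 388 tags (counting interval 350 to 429). The wild-type adipogenic library had a peak of 347 from 244 tags and LSD1(OE) cells one of 685 from 179 tags. Plxna2 scored 986, 180 and 672 from 249, 123 and 182 tags, with densities of 1.63, 1.18 and 1.65. Plxnb1 (146, 82.7 and 507) and Plxnd1 (550, 223 and 368), a receptor for Sema3e, also had promoter peaks in all 3 libraries. Plxna4, Plxnb3 and Plxnc1 had none.

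EphA and EphB receptors differed in how many had promoter peaks. EphB receptors had one at 4 of 5 genes in each library, and these were Ephb2, Ephb3, Ephb4 and Ephb6 throughout. Ephb6, a receptor without kinase activity, scored 899, 242 and 349 from 215, 108 and 191 tags. EphA receptors had a promoter peak at 2, 1 and 2 of 9 genes, none of them in all 3 libraries, and 6 of 9 had none in any. The CpG ratio was at least 0.6 at 4 of those 6 (Epha3, Epha5, Epha7 and Epha8), so promoter peaks were missing at CpG-rich EphA promoters too. Epha7 had a peak whose centre lay 2124 bp from its TSS in myogenic medium and 2103 bp in LSD1(OE) cells, just outside the window, while the closest to the TSS of Epha5 was 1362848 bp away. Just inside the window lay an LSD1(OE) peak of Plxnb2, at 1927 bp, and a weak myogenic peak of Nrp2, at -1992 bp.

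**Figure D2:**
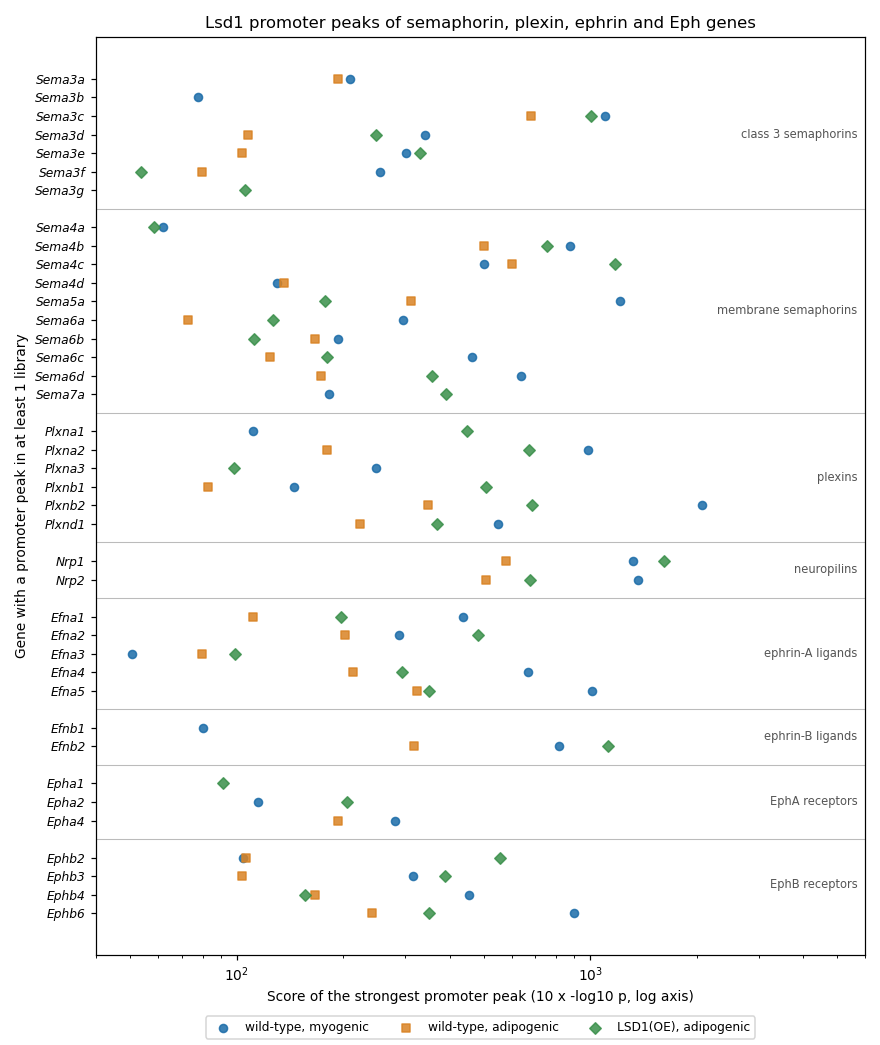
Score of the strongest promoter peak (horizontal axis, log scale, 10 times the negative log10 of the p-value) of each of the 39 genes that had one, grouped by role (vertical axis), with 1 symbol per library and none where there was no peak. Plxnb2 in myogenic medium lies farthest right at 2078, and EphA receptors never show all 3 symbols.

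Scores cannot be compared between libraries of different depth, so tag densities were compared at promoter peaks of 1 library and the strongest peak of the other that overlapped them, per kb of each library's peak and per 1000000 filtered ChIP tags. From myogenic to wild-type adipogenic medium the density was lower at all 30 genes that had such a pair, with a median log2 ratio of -0.32 and a range of -0.71 to -0.03, and at 11 of them the 95% counting interval was below 0. Over 6061 genes the median was -0.47 and 96.4% were lower, so a lower density was common to the whole library. All 11 intervals reached above that median, the nearest being that of Plxnb2 with an upper limit of -0.45. How many of all genes had an interval below 0 was not counted. Nrp2 (2.86 to 1.75, log2 ratio -0.71), Plxnb2 (2.22 to 1.38, -0.68) and Efnb2 (2.16 to 1.37, -0.66) were lowest. Sema3c (2.11 to 2.03, -0.06), Sema4c (1.47 to 1.44, -0.03) and Nrp1 (1.68 to 1.57, -0.10) had intervals that included 0. The sign of the median depends on the scaling: with each library divided by its median density over peaks shared by all 3 libraries, it was 0.04.

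In adipogenic medium, LSD1(OE) cells had the higher density at 20 of 27 genes, with a median log2 ratio over wild-type cells of 0.16, the same as over 5521 protein-coding genes, and 0.02 with each library divided by its median density over shared peaks. The density was lower in LSD1(OE) cells at 7 of the 27 genes, and at 26.0% of all genes. The interval was above 0 at 6 genes, and below 0 at 0. These were Plxna2 (1.18 to 1.65, log2 ratio 0.49), Ephb3 (0.46), Plxnd1 (0.45), Efna2 (0.43), Plxnb2 (1.38 to 1.79, 0.37) and Nrp1 (1.57 to 1.90, 0.28). All 6 intervals began at or below 0.16, the median of all genes, and how many of all genes had an interval above 0 was not counted. The Plxnd1 value uses an LSD1(OE) peak of 460 tags that covers the TSS but has its centre 2044 bp away, and it is therefore counted among gene-body peaks, while the LSD1(OE) promoter peak of 113 tags was not used. Nrp2 (1.75 to 1.79, 0.03) and Sema3c (2.03 to 2.07, 0.03) were nearly equal in both. Against myogenic medium, LSD1(OE) cells had the lower density at 22 of 30 genes and the higher at 8, with a median of -0.21 (all 7879 genes, -0.30), and 0.01 under the other scaling. The densities rest on single libraries and on peaks whose edges were called in each library separately.

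**Figure D3:**
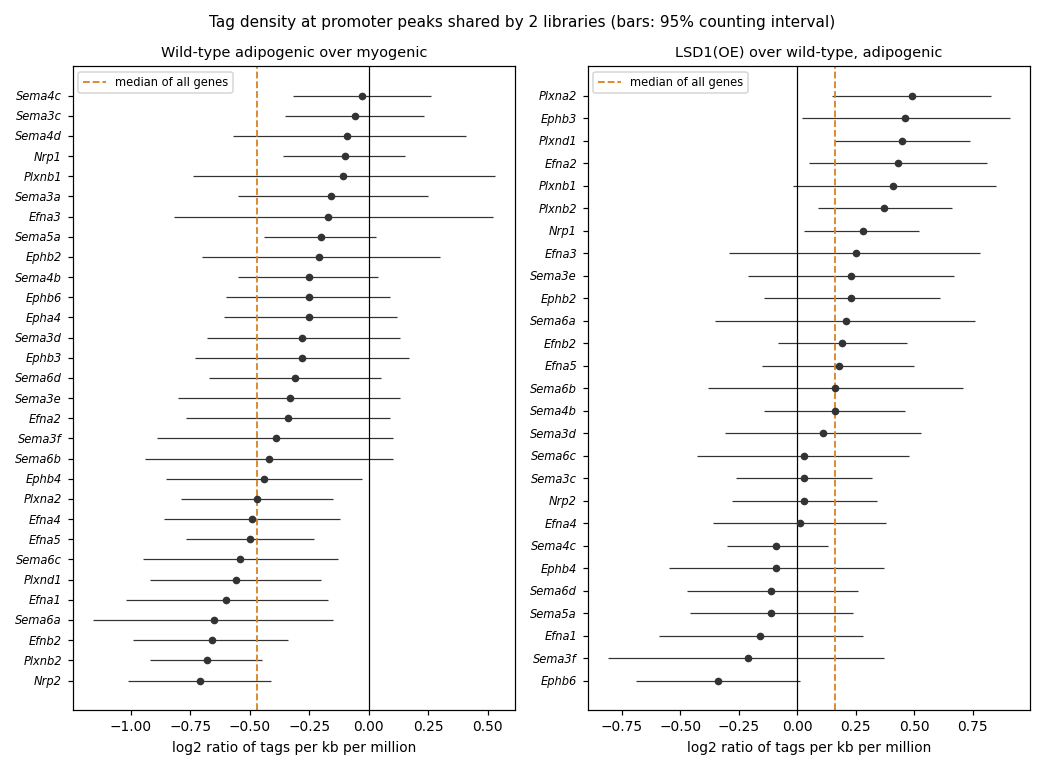
Log2 ratio of tags per kb per 1000000 ChIP tags (horizontal axes) at a promoter peak of each gene (vertical axes) and the peak of the other library overlapping it, with 95% counting intervals as bars, for wild-type adipogenic over myogenic medium (left, 30 genes) and LSD1(OE) over wild-type cells in adipogenic medium (right, 27 genes). The dashed line is the median of all protein-coding genes, -0.47 on the left and 0.16 on the right. All 30 points on the left are below 0, and 20 of 27 on the right are above it.

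Among the 23 genes whose promoters had no peak in wild-type adipogenic cells, 7 showed one in LSD1(OE) cells (30.4%, against 20.6% of the protein-coding genes without an adipogenic peak). Plxna1, a partner of neuropilins in class 3 semaphorin receptors, had the strongest, at 449 from 155 tags, with 111 from 49 tags in myogenic medium. Sema7a, a lipid-anchored semaphorin, scored 391 from 160 tags, with 183 from 60 tags in myogenic medium. Epha2, an ephrin-A receptor, scored 205 from 101 tags, with 115 from 45 tags in myogenic medium. Plxna3 (98.1, myogenic 248) and Sema4a (58.2, myogenic 61.9) were weaker. Sema3g (105 from 70 tags) and Epha1 (91.2 from 50 tags) had no myogenic promoter peak, but Epha1 had a myogenic peak 2365 bp from its TSS. The centre of that peak was nearer to the TSS of another gene, 2010310C07Rik, at 232 bp. In the other direction, Epha4, Sema3a and Sema4d lacked a promoter peak in LSD1(OE) cells alone. Epha4, a receptor for ephrins of both classes, scored 281 and 193 from 126 and 129 tags, and its closest LSD1(OE) peak was 43492 bp from the TSS. Sema4d scored 130 and 136.

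A gene-body peak was present at 43 genes (81.1%, against 44.2% of all genes) in the myogenic library, at 29 (54.7%, against 24.9%) in the wild-type adipogenic library and at 35 (66.0%, against 35.6%) in LSD1(OE) cells. Promoter peaks centred inside the gene count here too. Outside promoter windows 33, 15 and 29 genes had one (62.3, 28.3 and 54.7%, against 24.1, 12.6 and 19.1%), fewer than had a promoter peak in each library. The 53 genes are longer, with a median of 36.0 kb against 16.7 kb. Per 100 kb of gene body outside promoter windows they held 2.07, 0.535 and 1.25 peaks, against 1.57, 0.606 and 1.18 over all genes, so the difference from all genes was smaller per kb than per gene and had the other sign in the wild-type adipogenic library. Introns held 134 of the 139 such myogenic peaks, 35 of 36 adipogenic ones and 79 of 84 in LSD1(OE) cells. The intron share over all genes was not counted, so these counts cannot be called particular to these genes. Sema5a and Nrp2 together held 33, 12 and 25 of these peaks outside promoter windows.

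In Plxna1, Sema5a and Plxnd1 the strongest gene-body peak had a higher score than the promoter peak in every library with a promoter peak. The same held for Sema3d, Epha2 and Sema4a, and the share of all genes with this was not counted. Plxna1, whose promoter peaks were weak, had a region in the third intron, centred 12 kb into the gene with scores of 1500 (326 tags) in myogenic medium, 1408 (438 tags) in wild-type adipogenic medium and 3100 (663 tags) in LSD1(OE) cells. The last value is one at which the caller listed 37 peaks of that library, so it may be a ceiling of the score. A neighbouring region 17.1 kb into Plxna1 scored 1233, 742 and 1597 from 251, 264 and 332 tags. Wild-type adipogenic medium therefore had strong Plxna1 peaks inside the gene and none at its promoter. In Sema5a a region of the first intron 85.3 kb into the gene scored 1434, 564 and 2380 from 358, 285 and 440 tags, with densities of 1.92, 1.92 and 2.28 per kb and 1000000 ChIP tags. Genes of chromosome 15, where Sema5a lies, held 3.70, 1.76 and 2.65 peaks per 100 kb of gene body outside promoter windows, against 1.48, 0.561 and 1.12 elsewhere, and the part of this in the Sema5a counts was not tested. In the first intron of Plxnd1, myogenic peaks centred 5495 and 3226 bp from its start scored 661 and 300 from 158 and 134 tags. Wild-type adipogenic peaks at 5371 and 3178 bp scored 260 and 493 from 133 and 206 tags. LSD1(OE) cells had a peak scoring 1756 from 460 tags that lay over both the first intron and the promoter.

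Nrp2 held 14, 9 and 16 gene-body peaks, the most of the 53 genes in either adipogenic library. Outside its promoter window they formed 19 separate regions, of which 7 had a peak in all 3 libraries. The region 21.5 kb into Nrp2 scored 305, 504 and 1306 from 87, 227 and 282 tags. Sema5a formed 26 regions over 452 kb, of which 2 had a peak in all 3 libraries and 14 only in myogenic medium, and Plxna2 formed 10, of which 1 was in all 3. Regions with peaks in all 3 libraries made up 23 of the 171 regions of all these genes (13.5%, against 14.3% over all genes), and 80 were found only in myogenic medium (46.8%, against 39.8%).

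**Figure D4:**
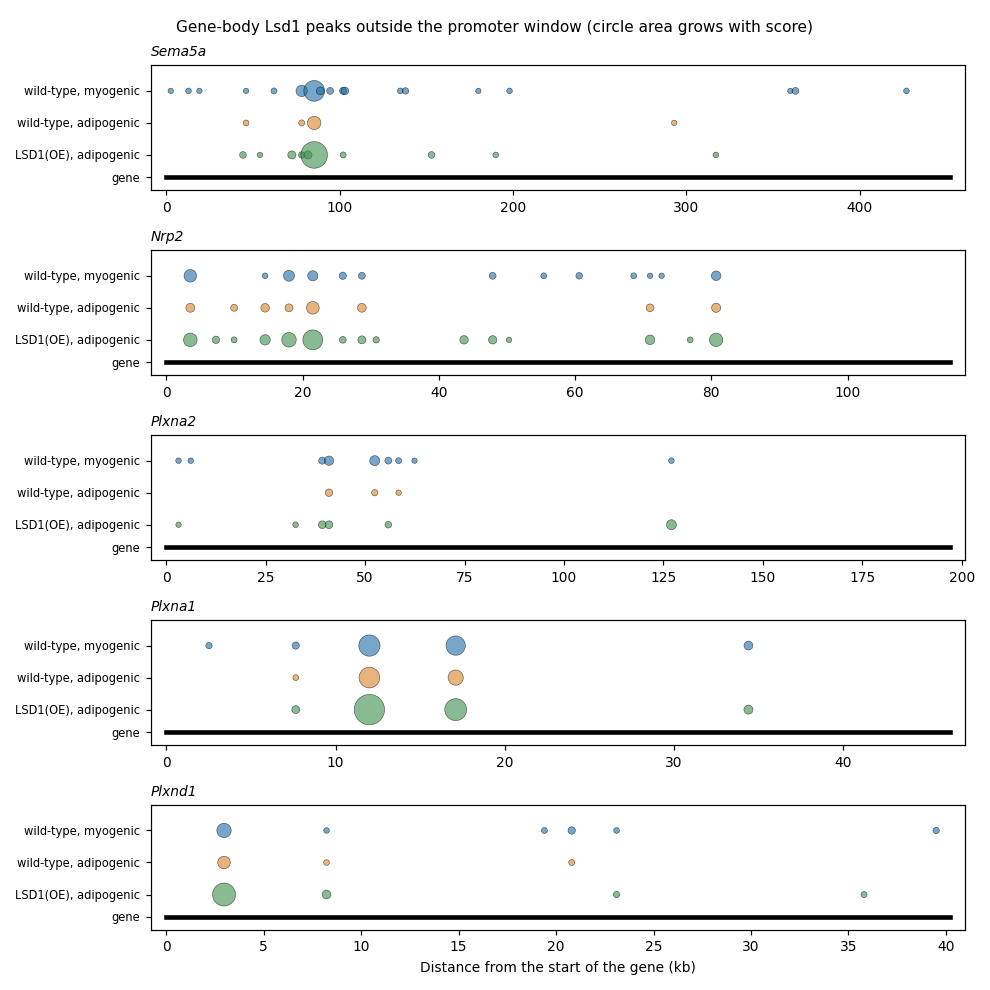
Gene-body Lsd1 peaks outside the promoter window in the 5 genes with the most gene-body peaks, by distance from the start of the gene in kb (horizontal axes), in 3 rows per gene, 1 for each library, with circle area growing with the score and overlapping peaks drawn at 1 position. The black bar is the gene. Plxna1 has large circles in every library at 12 and 17.1 kb and Sema5a at 85.3 kb, while most peaks of Sema5a appear in 1 library.

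Some long genes had no peak at all. Epha6 (952 kb), Plxna4 (444 kb), Ephb1 (433 kb) and Epha5 (363 kb) held neither a promoter nor a gene-body peak in any library, as did 5 shorter genes, Efnb3, Epha8, Epha10, Plxnb3 and Sema4g. The share of all genes without any peak was not counted.

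Over promoters and bodies, these genes took in 198, 78 and 126 peaks. Adipogenic peaks overlapped a myogenic one in 92.3% (80.5% over all peaks) and an LSD1(OE) one in 80.8% (74.5%). Of the myogenic peaks 35.4% overlapped an adipogenic one, the same share as over all peaks, and 47.5% an LSD1(OE) one (46.5%). LSD1(OE) peaks overlapped a myogenic one in 68.3% (59.8%) and an adipogenic one in 45.2% (42.0%). The short motif TGTGGT, of the kind bound by Runx factors, stood on either strand in the 300 bp around the summit of 17 of the 36 adipogenic gene-body peaks outside promoters and 31 of the 84 in LSD1(OE) cells (47.2 and 36.9%, against 29.8 and 27.0% of all peaks outside promoters). In myogenic medium it was in 25.2%, against 29.1%. At promoter peaks of these genes it was in 13.6, 4.76 and 4.76%, against 13.1, 13.3 and 12.8% of all promoter peaks. TGANTCA, the AP-1 motif, was in 30.2, 13.9 and 17.9% of the gene-body peaks outside promoters, against 23.6, 27.1 and 22.4% of all peaks outside promoters. The E-boxes CAGCTG (23.7, 36.1 and 22.6%, against 28.4, 34.2 and 28.5%) and also CAGGTG (27.3, 27.8 and 27.4%, against 22.9, 26.3 and 24.7%), and the Tead motif CATTCC (17.3, 11.1 and 25.0%, against 19.9, 19.0 and 18.3%), were searched in the same windows. The GC box GGGCGG was in 5.76, 16.7 and 15.5% of them, against 8.53, 10.2 and 8.25% of all peaks outside promoters.

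The signalling partners of these ligands and receptors, a list of 42 genes, had promoter peaks at 32, 25 and 30 genes (76.2, 59.5 and 71.4%, against 51.5, 29.9 and 41.1% of all genes). This list was not split by CpG ratio, and of all CpG-rich genes 80.4, 48.4 and 64.8% had a promoter peak. All 3 libraries had a promoter peak at 25 of the 42 (59.5%, against 26.3%) and none at 10 (23.8%, against 45.0%). The highest score was that of Cfl1, encoding the actin-severing protein cofilin, with 2653, 512 and 789 from 476, 265 and 196 tags. Fyn, a Src-family kinase activated by ephrin-A and semaphorin signals, scored 1211, 176 and 613. Ptk2, encoding focal adhesion kinase, scored 785, 313 and 1159. Crmp1, Dpysl4 and Dpysl5, of the family that transmits Sema3a signals, had none, while Dpysl2 and Dpysl3 had one in each library.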

How the data were processed

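Lsd1 ChIP-seq and input libraries of C2C12 cells were assigned to 3 conditions from the labels, 1 of each per condition. The authors fixed the cells for 6 min with 1% PFA, mapped reads to mm10 with Bowtie (Bowtie2 per the labels) and called peaks of each ChIP library against its own input with MACS 1.4.2 (file headers) at a p cut-off of 1e-05. The deposited tag counts are unnormalized, after duplicates had been limited. The deposited score is 10 times the negative log10 of a Poisson p-value, with the smaller library scaled up to the larger. The deposited fold enrichment is a ratio to local background and was not compared between libraries. The deposited FDR is in percent, and every peak was under 1%. Inputs were used only as the authors' controls.

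TSSs, gene bodies and sequences were taken from the RefSeq annotation and genome of GRCm38.p6 (mm10), from curated transcripts only. A peak was given to each gene that had a TSS no more than 2000 bp from its centre. Tag counts have exact 95% Poisson intervals and density ratios 95% intervals, which cover counting error only. Motifs were searched on both strands: the E-boxes CAGCTG and also CAGGTG, the AP-1 motif TGANTCA, the Tead motif CATTCC, the Runx motif TGTGGT and the GC box GGGCGG. Values in full are given for the 12 genes with the highest promoter score, for genes with an adipogenic or LSD1(OE) promoter peak missing from wild-type adipogenic or myogenic medium, for the 5 genes with the most gene-body peaks, and for the 3 with the highest score in each further list. Other genes are named by presence of a peak, and those with values were added after their values were seen. The genes, lists and motifs were chosen with earlier results of these data known, and the split by CpG ratio was chosen after seeing the data. Steps were tested on simulated peaks. Python 3.11.15, NumPy 2.4.6, pandas 2.3.3, SciPy 1.17.1 and matplotlib 3.10.9 were used. RNA-seq and reads were not analysed here.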

Additional observations from a re-analysis of the deposited data

How the results depend on the processing

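Counts of genes with promoter or gene-body peaks, 3 patterns over libraries, overlaps and median density ratios, 22 results, were recomputed where the alternative applied, under stricter peak limits (FDR of 0.1%, score of at least 100), equal numbers of strongest peaks (18893 per library), unscaled ChIP tags, other promoter windows (1000 and 5000 bp), other assignments, stricter overlap and other scalings, 154 values in all, of which 138 stayed within the limits set for them. The number of these genes with a promoter peak stayed within 1.5 times in every library under every alternative, also among CpG-rich genes only (31, 27 and 28), an alternative added after seeing the data. At an FDR limit of 0.1%, 17 genes had promoter peaks in all 3 libraries and 18 a gene-body peak in adipogenic medium; without promoter windows the latter was 15. With equal peak numbers, 1 gene had promoter peaks in myogenic medium and LSD1(OE) cells but not in wild-type adipogenic medium. The share of myogenic peaks overlapping adipogenic ones was 44.7% at a score of at least 100 and 71.0% with equal numbers, and that of LSD1(OE) peaks overlapping adipogenic ones 54.1 and 64.0%. Adipogenic peaks overlapped myogenic ones in 67.9% with equal numbers. With an overlap of at least 50% of both peaks, adipogenic peaks overlapped myogenic ones in 74.4% and LSD1(OE) ones in 59.0%, and LSD1(OE) peaks overlapped adipogenic ones in 36.5%. The median log2 density ratio of adipogenic over myogenic medium became 0.04 and that of LSD1(OE) over myogenic 0.01 when densities were divided by their median over shared peaks, and the former was -0.67 for summed tags not divided by length; the cause was not tested. That of LSD1(OE) over wild-type adipogenic cells became 0.02. Stricter limits were not run on densities, and motif shares, gene-body regions, peaks per 100 kb, the shares of genes with a peak in 1 library given another, and scores of single genes were not recomputed. Of the netrin, Slit and receptor genes, 11 had a myogenic promoter peak within 5000 bp. No paired analysis was possible because each condition had 1 ChIP library. A peak under 27 to 35 tags could not be detected.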

Other observations

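Other guidance genes, the netrins, Slits and their receptors, were counted in the same way. Of 19 genes, 7 had one in the myogenic library, 5 in the wild-type adipogenic library and 7 in the LSD1(OE) library, which is 36.8, 26.3 and 36.8%, against 51.5, 29.9 and 41.1% of all protein-coding genes. All 3 libraries had one at 4 (21.1%, against 26.3%) and none at 11 (57.9%, against 45.0%). Ntn1, encoding netrin-1, scored 1867, 301 and 848 from 318, 155 and 252 tags, and Ntn4 1153, 143 and 513. Unc5b, encoding a netrin receptor, had a promoter peak in both adipogenic libraries, with a score of 679 from 282 tags in wild-type cells and 1642 from 352 tags in LSD1(OE) cells, and none in myogenic medium, a pattern found at 0.448% of protein-coding genes. The dependence receptor gene Dcc had no promoter peak in any library. None of these differences was tested, since each condition had 1 library.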
